A study of Homo sapiens with 6 samples.

Results

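The genes of the respiratory chain made up 114 of the 61806 gene IDs in the count table of U937 cells, and they were taken by symbol alone. The rule collected protein-coding genes whose symbols begin with NDUFA, NDUFB, NDUFC, NDUFS, NDUFV, SDH, UQCR, COX4, COX5, COX6, COX7, COX8, ATP5F1, ATP5M or ATP5P, together with the 13 protein genes of the mitochondrial genome. It found 87 nuclear genes of subunits or their paralogs, of which, by symbol, 39 were counted with complex I (including NDUFA4 and its paralog NDUFA4L2, whose place is described with their values), 4 to complex II, 9 to complex III, 17 to complex IV and 18 to complex V. It also took 12 assembly factors (8 NDUFAF and 4 SDHAF genes) and 2 read-through genes. The 13 mitochondrial genes encode 7 subunits of complex I, 1 of complex III, 3 of complex IV and 2 of complex V.

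The respiratory chain passes electrons from NADH (complex I) or succinate (complex II) through ubiquinone to complex III, cytochrome c and complex IV, and the ATP synthase (complex V) uses the proton gradient so formed. All of these complexes except complex II combine proteins from the nuclear and the mitochondrial genome. Mitochondrial genes are transcribed as long polycistronic RNAs by their own polymerase, whereas each nuclear subunit has a promoter of its own.

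Libraries were made from U937 cells given ethacrynic acid (3 libraries) or the vehicle DMSO (3 libraries). U937 is a human monocyte-like leukaemia line, entered as AML (acute myeloid leukaemia) in the labels, and ethacrynic acid is a diuretic drug that reacts with thiol groups. Titles give day 3 for every library, the treatment note gives 2 days of exposure, and no dose is stated. No label says whether replicates came from separate cultures. The p-values below therefore weigh the difference between groups against the spread between these libraries, and that spread may be technical.

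Total counts were 66677543, 57516146 and 62722538 in the ethacrynic acid libraries, against 66907158, 68128543 and 68065154 in the DMSO libraries. Ethacrynic acid replicate 3 lay at 93.9 on the first principal component of all genes, while the other 5 libraries lay between -36.9 and -10.4. Its summed level of 8 epithelial markers was 460 CPM, against 42.9 and 50.4 CPM in ethacrynic acid replicates 1 and 2 and 34.0 to 53.3 CPM in DMSO. CPM are counts per 1000000 after TMM scaling of the library sizes. All 14 myeloid markers were detected well enough to be tested, and their sum was 3253 to 4226 CPM with ethacrynic acid and 2646 to 3105 CPM with DMSO. The erythroid markers HBA1, HBA2, HBB, HBG1, HBG2 and GYPB and 5 of the 8 fibroblast markers (COL1A2, COL3A1, DCN, LUM and PDGFRA) had no count in any library. All 10 erythroid markers summed to 17.3, 17.1 and 17.2 CPM with ethacrynic acid, against 17.3, 16.1 and 15.3 CPM with DMSO. Only 1 of the 10 had enough counts to be tested. The 8 fibroblast markers summed to 5.90, 9.40 and 4.15 CPM with ethacrynic acid, against 2.99, 3.55 and 3.04 CPM with DMSO. The 10 lymphoid markers summed to 239, 181 and 152 CPM with ethacrynic acid, against 144, 135 and 134 CPM with DMSO. The myeloid, fibroblast and lymphoid sums were higher in every ethacrynic acid library than in every DMSO library. Single markers went both ways. The log2 fold change, ethacrynic acid over DMSO, was positive in 10 of 14 tested myeloid, 2 of 3 fibroblast and 3 of 9 lymphoid markers. The part of these markers in the results below was not tested.

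No respiratory chain gene passed the test between ethacrynic acid and DMSO. Of the 114 genes, 107 had enough counts to be tested, and 0 were called at a Benjamini-Hochberg adjusted p under 0.05 (edgeR quasi-likelihood F-test). The same test called 0.265% of all 19611 genes, 0.229% higher and 0.0357% lower, so few members would be called at that rate. At an unadjusted p under 0.05, 14 members were higher (13.1%) and 2 lower (1.9%), against 6.54% and 4.6% of all genes. Under total count scaling 10 were higher and 6 lower. When the model also allowed for replicate number, 26 were higher and 3 lower. With a library left out, they ranged from 2 higher and 0 lower (without DMSO replicate 3) to 33 higher and 2 lower (without ethacrynic acid replicate 3). The shares over all genes are not given for these settings, so the counts cannot be told apart from a shift of all genes. Calls over all genes at an adjusted p under 0.05 did shift. There were 52 in the main fit, 7 without DMSO replicate 3, 148 without ethacrynic acid replicate 3 and 355 with replicate number in the model. limma-voom called 0 members, and DESeq2 called only the read-through gene NDUFC2-KCTD14, at a rate of 3.82% over all genes. Sequencing of bulk RNA cannot tell apart fewer cells of a type and less RNA per cell.

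The nuclear subunits leaned to positive fold changes and the mitochondrial genes lay near 0, but both lean by less than the libraries of a group differ. The median log2 fold change, ethacrynic acid over DMSO, was 0.17 over the 81 nuclear subunits tested, 0.07 over the 13 mitochondrial genes, 0.10 over the 12 assembly factors and -0.00 over all genes. Scaled to total counts alone, the mitochondrial median was -0.02. Positive values were seen in 64 of 81 nuclear subunits, 8 of 13 mitochondrial genes and 10 of 12 assembly factors. Over all members 83 of 107 were positive (77.6%), against 49.9% of all genes. Many members are short: 41 of the 81 nuclear subunits have at most 387 coding bases. Of all tested nuclear protein-coding genes that short, 499 of 680 had positive values. Under total count scaling 67 of the 107 were positive. Without ethacrynic acid replicate 1 the nuclear median was 0.02, with 46 of 81 positive, the mitochondrial median was also 0.02, and that of the assembly factors was -0.01, with 6 of 12 positive. Without ethacrynic acid replicate 3 the medians were 0.26 for nuclear subunits and 0.06 for mitochondrial genes.

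The intervals of the fold changes, which rest on the spread between the libraries, were narrow at most of these genes. They bound an effect of the drug only if the libraries came from separate cultures, which no label states. The 95% confidence interval of the fold change lay within 2-fold in either direction for 80 of the 81 nuclear subunits, the exception being NDUFA7, and for all 13 mitochondrial genes and all 12 assembly factors, against 62.8% of all genes. The intervals of the 13 mitochondrial genes together spanned log2 values of -0.72 to 0.55. The smallest mean count over the 6 libraries was 302 for a tested nuclear subunit (the paralog UQCRHL) and 16741 for a mitochondrial gene (MT-ND3).

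In TMM-scaled CPM the libraries of the groups did not overlap for 22 members. Of these, 18 were higher (16.8%) and 4 lower (3.7%) with ethacrynic acid, against 8.64% and 8.99% of all genes. The 4 lower ones were NDUFS1, NDUFA5, SDHD and the assembly factor SDHAF3.

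**Figure D1:**
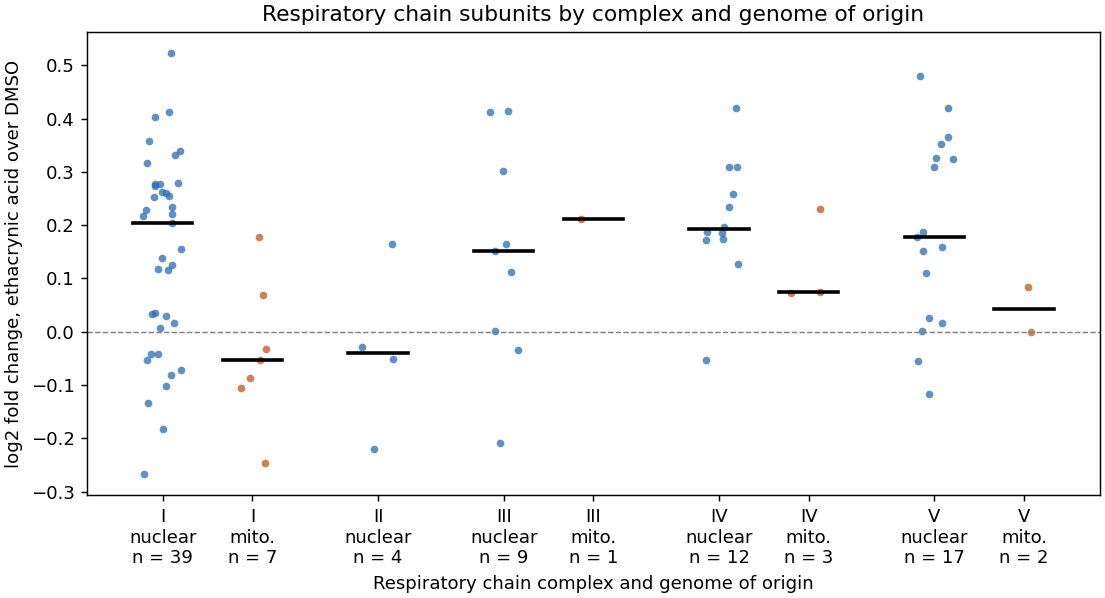
Each point is the log2 fold change, ethacrynic acid over DMSO, of a tested subunit gene, placed by complex (I to V) and by nuclear (blue) or mitochondrial (orange) genome, and bars mark medians. Nuclear medians lie between 0.15 and 0.20 in complexes I, III, IV and V and at -0.04 in complex II, whereas the 7 mitochondrial genes of complex I have a median of -0.05.

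By complex, the nuclear median was 0.20 for complex I (30 of 39 positive), -0.04 for complex II (1 of 4), 0.15 for complex III (7 of 9), 0.19 for complex IV (11 of 12) and 0.18 for complex V (15 of 17). The mitochondrial values were -0.05 for complex I (2 of 7 positive), 0.21 for MT-CYB, the only mitochondrial gene of complex III, 0.08 for complex IV (3 of 3) and 0.04 for complex V (2 of 2). The plot of fold changes by complex shows the nuclear points of complex I above the mitochondrial ones, with ranges of -0.27 to 0.52 and -0.25 to 0.18 that overlap. Without ethacrynic acid replicate 1 the nuclear medians of complexes I to V were 0.02, -0.15, 0.03, 0.03 and -0.00. The distance between genomes within a complex was not tested, since a list of genes is not a set of replicates.

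The promoters of 4 nuclear subunits are shown because these genes had the extreme values among the subunits: SDHD and NDUFS1 were the 2 lower ones, and ATP5MC1 and NDUFB2 the 2 higher ones of smallest p. The windows run from 250 bases before to 50 after the RefSeq start (GRCh38.p14). Capitals mark matches on either strand to the NRF1 consensus (GCGCA, any base, then GCGC) and to CCGGAAG, an ETS site of the kind bound by GABPA. NRF1 and GABPA are known activators of respiratory chain genes.
SDHD chr11:112086623-112086922 (plus strand): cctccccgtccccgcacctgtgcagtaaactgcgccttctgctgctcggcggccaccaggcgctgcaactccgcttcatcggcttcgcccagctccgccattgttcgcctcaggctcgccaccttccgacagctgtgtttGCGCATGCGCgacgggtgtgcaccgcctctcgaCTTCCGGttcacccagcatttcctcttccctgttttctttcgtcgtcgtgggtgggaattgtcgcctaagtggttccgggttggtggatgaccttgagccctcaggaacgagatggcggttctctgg
NDUFS1 chr2:206159395-206159694 (minus strand): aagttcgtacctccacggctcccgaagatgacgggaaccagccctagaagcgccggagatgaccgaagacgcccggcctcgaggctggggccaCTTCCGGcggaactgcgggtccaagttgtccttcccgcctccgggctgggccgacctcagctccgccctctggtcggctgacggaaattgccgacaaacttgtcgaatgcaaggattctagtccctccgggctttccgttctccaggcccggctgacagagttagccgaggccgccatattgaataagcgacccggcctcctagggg
ATP5MC1 chr17:48892537-48892836 (plus strand): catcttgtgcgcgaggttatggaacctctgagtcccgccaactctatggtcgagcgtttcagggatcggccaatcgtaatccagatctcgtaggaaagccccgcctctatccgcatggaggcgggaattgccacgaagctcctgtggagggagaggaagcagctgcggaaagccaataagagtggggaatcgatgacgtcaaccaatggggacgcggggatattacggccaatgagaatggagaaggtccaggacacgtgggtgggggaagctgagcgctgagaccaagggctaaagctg
NDUFB2 chr7:140696458-140696757 (plus strand): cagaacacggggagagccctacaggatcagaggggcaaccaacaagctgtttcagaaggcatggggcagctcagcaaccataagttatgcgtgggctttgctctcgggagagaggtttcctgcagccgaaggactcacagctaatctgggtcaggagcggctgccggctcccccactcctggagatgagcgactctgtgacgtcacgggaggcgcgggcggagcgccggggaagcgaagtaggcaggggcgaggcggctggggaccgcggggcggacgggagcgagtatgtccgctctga
The SDHD window held an NRF1 match that starts 110 bases before the start and an ETS match at 77 bases before it, and the NDUFS1 window an ETS match at 157 bases before it. No match to either was found in the windows of ATP5MC1 and NDUFB2. These 4 windows do not stand for all subunits. UQCR11 (log2 fold change 0.41) had 2 NRF1 and 2 ETS matches, and ATP5ME (0.42) had 2 NRF1 and 1 ETS. NDUFA5 (-0.13) had no match to either.

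Of the 87 nuclear subunit genes, 71 had a window in the RefSeq table. The NRF1 consensus was found in 17 of them (23.9%), against 8.58% of 15843 windows of protein-coding genes, and the ETS consensus in 20 (28.2%), against 14.2%. AAGATGGC, the consensus of YY1, was found in 11 (15.5%), against 3.91%. Both strands were searched, and matches to different motifs were allowed to overlap. GGGCGG, the box of SP1 and its relatives, was found in 41 (57.7%) and 58.5% of all windows, and TGACNNNGC, the core of the antioxidant response element, in 10 (14.1%) and 14.3%. The median log2 fold change of subunits with and without a match was 0.13 and 0.20 for NRF1, 0.21 and 0.15 for ETS, 0.00 and 0.20 for YY1, 0.18 and 0.21 for the SP box and 0.27 and 0.17 for the antioxidant response element. A match is a run of letters and was not tested as a bound site.

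As a sum, the 13 mitochondrial genes held 7.33, 7.39 and 7.65% of all counts with ethacrynic acid, against 7.76, 7.60 and 7.65% with DMSO. The ranges overlapped. The nuclear subunits held 1.04, 0.871 and 0.855% with ethacrynic acid, against 0.951, 0.891 and 0.906% with DMSO, and ethacrynic acid replicate 1 was the highest of the 6. Counts of mitochondrial genes per count of a nuclear subunit were therefore 7.02, 8.49 and 8.95 with ethacrynic acid and 8.16, 8.53 and 8.44 with DMSO. The log2 ratio of nuclear to mitochondrial counts averaged -3.02 ± 0.185 with ethacrynic acid and -3.07 ± 0.0337 with DMSO (SD, n = 3 each). The difference of 0.05 was smaller than the SD within ethacrynic acid, and it was -0.06 without ethacrynic acid replicate 1.

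Reads of neighbouring mitochondrial genes cannot be fully separated where their reading frames overlap on the same RNA. MT-ATP6 and MT-CO3 share 1 base, and 2 pairs share more. Each stretch is shown with 20 bases on both sides in lower case and the shared bases in capitals (GRCh38, GENCODE 29 transcripts).
MT-ATP8/MT-ATP6 chrMT:8507-8592 (plus strand): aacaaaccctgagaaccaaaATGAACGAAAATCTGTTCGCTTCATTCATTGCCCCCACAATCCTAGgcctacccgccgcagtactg
MT-ND4L/MT-ND4 chrMT:10740-10786 (plus strand): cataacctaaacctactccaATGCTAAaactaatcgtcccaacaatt
MT-ATP8 and MT-ATP6 share 46 bases, and MT-ND4L and MT-ND4 share 7. In the following values the pairs are therefore also given as sums.

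The 7 mitochondrial genes of complex I encode subunits of its proton-pumping membrane arm. Their summed level was 25467, 26172 and 25881 CPM with ethacrynic acid, against 27333, 27472 and 26595 CPM with DMSO. Every ethacrynic acid library lay below every DMSO library, and the ratio of the means was 0.952. MT-ND4 (mitochondrial chromosome, 10760 to 12137) had 14991, 14162 and 14147 CPM with ethacrynic acid, against 15426, 14798 and 14682 CPM with DMSO (log2 fold change -0.05 ± 0.09 SE, adjusted p = 0.858). MT-ND4L (10470 to 10766) had 1457, 2272 and 2524 CPM with ethacrynic acid, against 2112, 2627 and 2681 CPM with DMSO (log2 fold change -0.25 ± 0.20 SE, adjusted p = 0.670). For each gene the groups overlapped, MT-ND4L was lowest in replicate 1 of both groups, and without ethacrynic acid replicate 1 its value was -0.04. The sum of the pair, 16449, 16435 and 16670 CPM with ethacrynic acid and 17538, 17425 and 17363 CPM with DMSO, did not overlap. Per 100 counts of MT-ND4 there were 9.72, 16.0 and 17.8 counts of MT-ND4L with ethacrynic acid and 13.7, 17.8 and 18.3 with DMSO.

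The other complex I genes of this genome overlapped between the groups. MT-ND1 (3307 to 4262) had 2974, 3035 and 2734 CPM with ethacrynic acid, against 3258, 3218 and 2928 CPM with DMSO (log2 fold change -0.11 ± 0.10 SE). MT-ND2 (4470 to 5511) had 2911, 3067 and 3092 CPM with ethacrynic acid, against 3076, 3318 and 2882 CPM with DMSO (-0.03 ± 0.09). MT-ND5 (12337 to 14148) had 1945, 2624 and 2515 CPM with ethacrynic acid, against 2383, 2614 and 2529 CPM with DMSO (-0.09 ± 0.13), and replicate 1 was the lowest in each group. MT-ND3 (10059 to 10404), the least abundant of the 13, had 325, 261 and 237 CPM with ethacrynic acid, against 252, 235 and 241 CPM with DMSO (0.18 ± 0.13). MT-ND6 (14149 to 14673), the only protein gene read from the opposite strand, had 862, 751 and 633 CPM with ethacrynic acid, against 826, 662 and 652 CPM with DMSO (0.07 ± 0.14). For these last 2 genes replicate 1 was the highest library in each group.

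MT-CYB (14747 to 15887), which encodes cytochrome b of complex III, had the values of smallest p among the 13. It had 2206, 2092 and 2236 CPM with ethacrynic acid, against 1974, 2030 and 1635 CPM with DMSO. The groups did not overlap after TMM scaling but overlapped as shares of all counts. The log2 fold change was 0.21 ± 0.11 (SE, edgeR unadjusted p = 0.0875, adjusted p = 0.507). Without DMSO replicate 3, the lowest library, it was 0.12.

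MT-CO1, MT-CO2 and MT-CO3 encode the catalytic core of complex IV. MT-CO1 (5904 to 7445) had 20280, 20801 and 20753 CPM with ethacrynic acid, against 19433, 19744 and 19505 CPM with DMSO. These groups did not overlap after TMM scaling but overlapped as shares of all counts. The log2 fold change was 0.08 ± 0.09 (SE, edgeR adjusted p = 0.774), and -0.00 when scaled to total counts alone. MT-CO2 (7586 to 8269) had 8512, 6636 and 6256 CPM with ethacrynic acid, against 6548, 6045 and 5650 CPM with DMSO (0.23 ± 0.14, adjusted p = 0.557). MT-CO3 (9207 to 9990) had 16174, 13220 and 12738 CPM with ethacrynic acid, against 14121, 12827 and 13092 CPM with DMSO (0.07 ± 0.12). For MT-CO2 and MT-CO3 replicate 1 of ethacrynic acid was the highest library and the groups overlapped. The sum of the 3 was 44967, 40658 and 39747 CPM with ethacrynic acid, against 40103, 38616 and 38246 CPM with DMSO.

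MT-ATP6 and MT-ATP8 encode membrane subunits of the ATP synthase. MT-ATP6 (8527 to 9207) had 5905, 5148 and 5102 CPM with ethacrynic acid, against 5383, 5243 and 4617 CPM with DMSO (log2 fold change 0.08 ± 0.11 SE). MT-ATP8 (8366 to 8572) had 1511, 1601 and 1599 CPM with ethacrynic acid, against 1599, 1670 and 1442 CPM with DMSO (0.00 ± 0.09, with a sign that varies among scalings). Both overlapped between the groups, as did their sum of 7416, 6749 and 6701 CPM with ethacrynic acid and 6982, 6913 and 6059 CPM with DMSO. Copies of mitochondrial sequence in the nuclear genome hold part of such reads: MTATP6P1 and other named copies took 16.1% of the MT-ATP6 family's counts, MT-ND2 copies 9.35% and MT-CO1 copies 1.61%. With the copies added, MT-CO1 stayed apart after TMM scaling (20619, 21133 and 21101 CPM with ethacrynic acid, 19756, 20058 and 19817 CPM with DMSO).

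**Figure D2:**
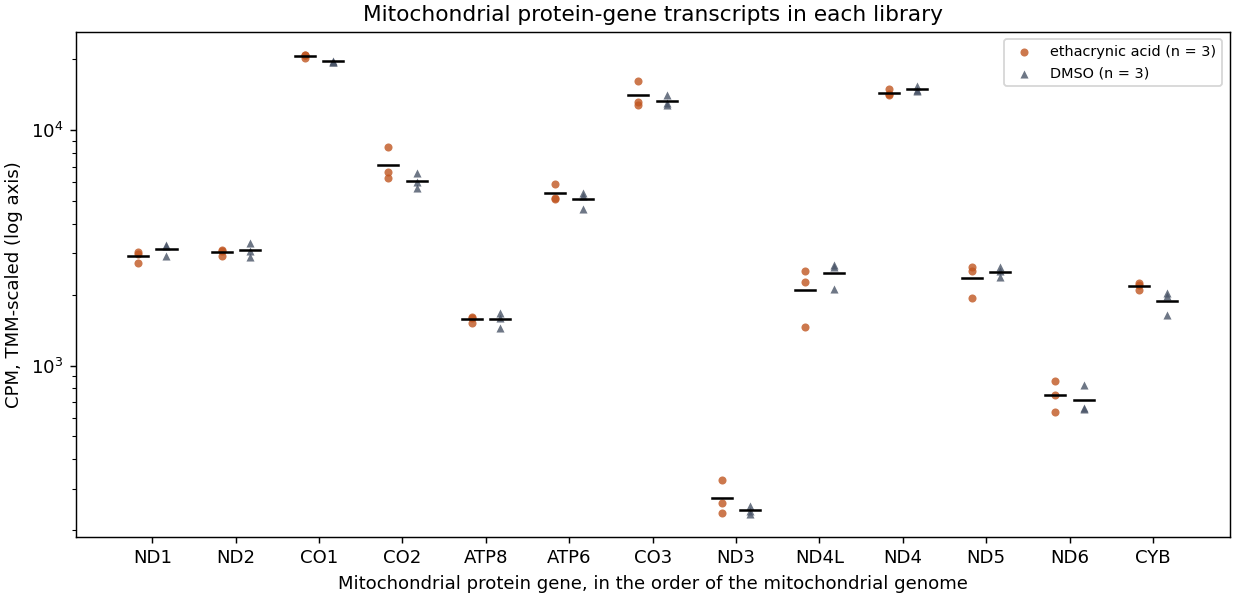
Levels of the 13 mitochondrial protein genes in CPM (log axis), in their order along the genome, with ethacrynic acid libraries as circles, DMSO libraries as triangles and group means as bars. MT-CO1 and MT-CYB are the genes whose groups do not overlap in these TMM-scaled values. The low circle of MT-ND4L is ethacrynic acid replicate 1 at 1457 CPM.

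Levels per length showed how unequal the 13 genes were within these RNAs. Per kilobase of transcript, DMSO libraries averaged 17024 CPM for MT-CO3, 12685 for MT-CO1, 10863 for MT-ND4, 8890 for MT-CO2 and 8327 for MT-ND4L. MT-ATP8 followed with 7586 CPM per kilobase and MT-ATP6 with 7461, which did not differ beyond their spread. A lower tier held MT-ND1 with 3279, MT-ND2 with 2967, MT-CYB with 1647, MT-ND5 with 1384, MT-ND6 with 1359 and MT-ND3 with 701 CPM per kilobase. These levels leave out the reads held by nuclear copies. With the named copies added, the DMSO mean was 6032 CPM for MT-ATP6 (5081 without) and 3423 CPM for MT-ND2 (3092 without). The places of these 2 genes in the order may therefore depend on how reads were assigned. With ethacrynic acid MT-CO3 (17914 CPM per kilobase) and MT-CO1 (13366) were again at the top and MT-ND3 (793) at the bottom. In between, MT-ND4L (7018) stood below MT-ATP6 (7907) and MT-ATP8 (7587), and MT-ND6 (1426) above MT-ND5 (1303). The highest nuclear subunits were ATP5F1B with 445 CPM per kilobase with ethacrynic acid and 462 with DMSO, NDUFB9 with 432 and 361, and COX4I1 with 354 and 314.

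Complex I has 7 nuclear core subunits, which carry the flavin and the iron-sulfur clusters, and many supernumerary subunits around them. The 7 core genes had a median log2 fold change of -0.04 (3 positive), and the 30 supernumerary genes, counted without NDUFA4 and NDUFA4L2, one of 0.22 (25 positive). The core and supernumerary medians were -0.16 (1 of 7 positive) and 0.03 (21 of 30) without ethacrynic acid replicate 1. NDUFS1, the largest core subunit and holder of several clusters (chromosome 2, 206114817 to 206159603), had 78.0, 99.0 and 96.9 CPM with ethacrynic acid, against 103, 115 and 111 CPM with DMSO. All ethacrynic acid libraries were below all DMSO libraries (log2 fold change -0.27 ± 0.11 SE, edgeR unadjusted p = 0.0460, adjusted p = 0.441), and without ethacrynic acid replicate 1 the value was -0.16. Among the other core genes, log2 fold changes were -0.04 for NDUFS7, 0.04 for NDUFV1, 0.12 for NDUFS8 and 0.23 for NDUFV2, each with overlapping groups.

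Among the supernumerary subunits NDUFB2, a small protein of the membrane arm (chromosome 7, 140690777 to 140722790), had 59.5, 43.1 and 37.4 CPM with ethacrynic acid, against 34.0, 33.1 and 30.4 CPM with DMSO. The groups did not overlap (log2 fold change 0.52 ± 0.17 SE, edgeR unadjusted p = 0.0153, adjusted p = 0.352), and the value was 0.32 without ethacrynic acid replicate 1. Its exons overlap ADCK2 on the same strand and BRAF and NDUFB2-AS1 on the other, so its counts are uncertain. NDUFS5 had 138, 102 and 89.8 CPM with ethacrynic acid, against 88.6, 80.5 and 78.5 CPM with DMSO (0.41 ± 0.16). NDUFB3 had 29.4, 23.2 and 20.9 CPM with ethacrynic acid, against 20.4, 17.6 and 17.6 CPM with DMSO (0.40 ± 0.15). In these genes replicate 1 was the highest ethacrynic acid library, and replicate 3, the lowest, was still above the highest DMSO library.

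Further members of complex I showed the spread. NDUFA5 had 57.5, 60.2 and 59.8 CPM with ethacrynic acid, against 63.3, 67.1 and 64.3 CPM with DMSO, without overlap (log2 fold change -0.13 ± 0.08 SE, adjusted p = 0.560). NDUFA7 had 35.7, 9.90 and 23.8 CPM with ethacrynic acid, against 29.4, 23.9 and 25.5 CPM with DMSO (-0.18 ± 0.38). Its SE was the largest of the 81 nuclear subunits, and 456 bases of its exons overlap AC010323.1 on the same strand. The most abundant subunits per length, NDUFB9 and NDUFA11, had 398, 268 and 257 CPM and 182, 126 and 109 CPM with ethacrynic acid, against 282, 237 and 250 CPM and 122, 115 and 95.02 CPM with DMSO, overlapping in both genes.

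NDUFA4 bears a complex I name but is known as a subunit of complex IV; by its symbol it stands among the 39 genes of complex I in the counts above. It had 133, 103 and 101 CPM with ethacrynic acid, against 94.0, 88.0 and 81.5 CPM with DMSO (log2 fold change 0.36 ± 0.13 SE, edgeR unadjusted p = 0.0227, adjusted p = 0.388), without overlap. Its paralog NDUFA4L2, known as a target of hypoxia signalling, had 9.09, 10.4 and 8.14 CPM with ethacrynic acid, against 7.97, 7.11 and 8.64 CPM with DMSO (0.22 ± 0.16), with overlap.

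The read-through gene NDUFC2-KCTD14 (chromosome 11, minus strand, 78016971 to 78079865) joins NDUFC2, a membrane-arm subunit of complex I, to a neighbouring gene, and it had the smallest p of the 107. It had 26.6, 32.5 and 39.4 CPM with ethacrynic acid, against 14.8, 23.2 and 10.4 CPM with DMSO (log2 fold change 1.03 ± 0.28 SE, edgeR unadjusted p = 0.00684, adjusted p = 0.273; DESeq2 adjusted p = 0.0101). The groups did not overlap. NDUFC2 itself had 84.8, 53.3 and 42.5 CPM with ethacrynic acid, against 62.7, 50.3 and 65.6 CPM with DMSO (0.02 ± 0.24). The 2 genes share 431 bases of exon, so the counts between them are divided in a way the table does not show. Their sum was 111, 85.8 and 81.9 CPM with ethacrynic acid, against 77.5, 73.5 and 76.0 CPM with DMSO, also without overlap, and the read-through's share of it was 23.9, 37.9 and 48.1% with ethacrynic acid and 19.1, 31.6 and 13.7% with DMSO, which overlapped. The second read-through gene, ATP5MF-PTCD1, had at most 5 counts in a library and was not tested.

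Complex II, succinate dehydrogenase, is encoded by the nucleus alone, and all 4 of its genes were tested. SDHD, a membrane anchor (chromosome 11, 112086773 to 112120013), had 83.5, 89.9 and 93.0 CPM with ethacrynic acid, against 102, 103 and 105 CPM with DMSO. The groups did not overlap (log2 fold change -0.22 ± 0.08 SE, edgeR unadjusted p = 0.0284, adjusted p = 0.410), and the value was -0.17 without ethacrynic acid replicate 1, which was the lowest library. Its exons overlap AP002884.3 on the same strand and TIMM8B on the other. SDHC, the other anchor, had 101, 92.3 and 81.4 CPM with ethacrynic acid, against 81.8, 83.6 and 79.4 CPM with DMSO (0.17 ± 0.10). SDHA, the flavoprotein, had 174, 147 and 130 CPM with ethacrynic acid, against 165, 162 and 140 CPM with DMSO (-0.05 ± 0.13), and its pseudogenes held 21.6% of the family's counts. SDHB, the iron-sulfur subunit, had 162, 134 and 127 CPM with ethacrynic acid, against 149, 142 and 140 CPM with DMSO (-0.03 ± 0.11). SDHA, SDHB and SDHC overlapped between the groups.

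The assembly factors help build complexes I and II without staying in them, and none was called. NDUFAF8 had 21.0, 16.4 and 14.1 CPM with ethacrynic acid, against 12.3, 14.5 and 11.0 CPM with DMSO (log2 fold change 0.44 ± 0.18 SE, edgeR unadjusted p = 0.0393, adjusted p = 0.428), with overlap. SDHAF3 had 25.4, 24.4 and 24.7 CPM with ethacrynic acid, against 27.5, 27.0 and 28.7 CPM with DMSO, without overlap (-0.16 ± 0.09, adjusted p = 0.558). The other 10 had log2 fold changes of -0.07 to 0.18.

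In complex III the small subunits UQCRQ, UQCR11 and UQCR10 gave the largest values of the nuclear genes. UQCRQ, a small subunit near cytochrome b, had 32.1, 25.5 and 21.1 CPM with ethacrynic acid, against 21.1, 19.4 and 18.6 CPM with DMSO (log2 fold change 0.41 ± 0.16 SE, adjusted p = 0.416). UQCR11 had 97.5, 74.0 and 69.1 CPM with ethacrynic acid, against 63.4, 61.7 and 55.6 CPM with DMSO (0.41 ± 0.14, adjusted p = 0.371). UQCR10 had 56.6, 37.5 and 37.6 CPM with ethacrynic acid, against 35.6, 36.8 and 34.4 CPM with DMSO (0.30 ± 0.17). The values were 0.25, 0.26 and 0.08 for UQCRQ, UQCR11 and UQCR10 without ethacrynic acid replicate 1. None of the 3 overlapped between the groups, though for UQCRQ the nearest libraries were 21.09 CPM with ethacrynic acid and 21.05 CPM with DMSO.

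The core proteins UQCRC1 and UQCRC2 had the highest CPM among the nuclear genes of the complex, while per kilobase UQCRH was above both (245 with ethacrynic acid and 219 with DMSO, against 185 in each group for UQCRC1). UQCRC1 had 444, 344 and 316 CPM with ethacrynic acid, against 389, 360 and 353 CPM with DMSO (log2 fold change 0.00 ± 0.13 SE). UQCRC2 had 390, 352 and 338 CPM with ethacrynic acid, against 369, 370 and 366 CPM with DMSO (-0.03 ± 0.09). The hinge protein UQCRH had 177, 138 and 129 CPM with ethacrynic acid, against 136, 130 and 130 CPM with DMSO (0.16 ± 0.12), and its intronless paralog UQCRHL 4.65, 4.32 and 3.89 CPM with ethacrynic acid, against 5.69, 3.35 and 5.82 CPM with DMSO (-0.21 ± 0.25). UQCRFS1, the Rieske iron-sulfur protein, was at 0.15 ± 0.12, and the small subunit UQCRB at 0.11 ± 0.13. The groups overlapped in each of these genes, and reads of UQCRH and UQCRHL may be divided between the copies.

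Complex IV exists in tissue forms that differ in their small nuclear subunits. COX6B1, at the face toward cytochrome c, had 136, 96.6 and 85.4 CPM with ethacrynic acid, against 79.8, 82.3 and 75.7 CPM with DMSO (log2 fold change 0.42 ± 0.17 SE, adjusted p = 0.422), without overlap. COX7B had 154, 120 and 105 CPM with ethacrynic acid, against 104, 103 and 98.9 CPM with DMSO (0.31 ± 0.14), also without overlap, and COX5A had 242, 180 and 168 CPM with ethacrynic acid, against 176, 146 and 154 CPM with DMSO (0.31 ± 0.15), with overlap. COX4I1, the regulatory subunit of highest level per length, had 308, 231 and 213 CPM with ethacrynic acid, against 236, 221 and 209 CPM with DMSO (0.17 ± 0.14). COX6B1 was at 0.21, COX7B at 0.15 and COX5A at 0.14 without ethacrynic acid replicate 1. Replicate 1 was the highest ethacrynic acid library in each of these genes, and in all 12 tested nuclear genes of the complex it was the highest library of the 6. COX7A2L, known as a factor that joins complexes III and IV, was the only one with a negative value, at 93.4, 76.7 and 72.8 CPM with ethacrynic acid and 90.7, 76.9 and 84.4 CPM with DMSO (-0.05 ± 0.12).

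Of the isoforms known from particular tissues, 5 had too few counts to be tested and COX8C was above the floor. COX4I2 had 0 counts in all 3 ethacrynic acid libraries and 7, 8 and 16 counts in the DMSO libraries, where 3 counts correspond to 0.0418 to 0.0534 CPM over the 6 libraries. COX6A2, COX6B2 and COX7A1 had at most 17 counts in a library, and COX7B2 and the complex V gene ATP5MGL had none. Their ubiquitous partners COX6A1 and COX7A2 had 137, 101 and 105 CPM and 80.7, 64.2 and 62.0 CPM with ethacrynic acid, against 106, 101 and 95.7 CPM and 60.6, 57.5 and 54.7 CPM with DMSO, and of these 2 only COX7A2 was without overlap (log2 fold change 0.26 ± 0.12 SE, adjusted p = 0.471). COX8A had 190, 134 and 120 CPM with ethacrynic acid, against 140, 126 and 128 CPM with DMSO (0.17 ± 0.17). COX8C, described as a testis form, was detected here at 10.7, 8.20 and 8.17 CPM with ethacrynic acid, against 9.43, 6.45 and 8.93 CPM with DMSO (0.13 ± 0.20).

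In complex V the medians differed by the position of the subunit. The 5 genes of the catalytic F1 head had a median log2 fold change of 0.00, the 4 of the peripheral stalk 0.10, the 3 of the c ring 0.31 and the other 5 membrane subunits 0.32. Without ethacrynic acid replicate 1 these medians were -0.09, -0.03, 0.18 and 0.12. ATP5F1B, the catalytic beta subunit, had 931, 789 and 736 CPM with ethacrynic acid, against 886, 866 and 798 CPM with DMSO (-0.05 ± 0.11). ATP5F1A, the alpha subunit, had 768, 648 and 621 CPM with ethacrynic acid, against 756, 723 and 730 CPM with DMSO (-0.12 ± 0.10). ATP5F1E, the small epsilon subunit of the same head, had 72.7, 49.9 and 44.1 CPM with ethacrynic acid, against 45.8, 41.5 and 42.1 CPM with DMSO (0.37 ± 0.18, and 0.13 without ethacrynic acid replicate 1). All 3 overlapped between the groups.

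The c ring, which turns with the proton flow, is made of identical proteins from 3 genes that differ in their import sequence. ATP5MC1 (chromosome 17, 48892765 to 48895871) had 82.0, 61.4 and 57.1 CPM with ethacrynic acid, against 50.0, 50.0 and 43.7 CPM with DMSO. Its groups did not overlap (log2 fold change 0.48 ± 0.15 SE, edgeR unadjusted p = 0.0113, adjusted p = 0.327), and the value was 0.32 without ethacrynic acid replicate 1. ATP5MC3 had 395, 330 and 279 CPM with ethacrynic acid, against 279, 278 and 254 CPM with DMSO (0.31 ± 0.13, adjusted p = 0.446), where the nearest libraries were 279.04 CPM with ethacrynic acid and 278.68 CPM with DMSO. ATP5MC2 had 229, 174 and 164 CPM with ethacrynic acid, against 187, 170 and 168 CPM with DMSO (0.11 ± 0.14), with overlap. Near-identical pseudogenes of ATP5MC1 held 0.149% of the family's counts.

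Of the other membrane subunits, ATP5ME had 30.9, 22.1 and 19.4 CPM with ethacrynic acid, against 18.5, 17.3 and 18.3 CPM with DMSO (log2 fold change 0.42 ± 0.17 SE, adjusted p = 0.435), without overlap. ATP5MF had 122, 88.4 and 77.2 CPM with ethacrynic acid, against 77.4, 77.6 and 74.3 CPM with DMSO (0.32 ± 0.16), with overlap. ATP5MK, a small accessory protein, had 54.6, 43.3 and 38.8 CPM with ethacrynic acid, against 35.7, 37.2 and 36.1 CPM with DMSO (0.33 ± 0.13), without overlap. ATP5PF of the stalk had 98.3, 74.6 and 69.01 CPM with ethacrynic acid, against 65.0, 62.6 and 61.9 CPM with DMSO (0.35 ± 0.14), also without overlap.

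Ethacrynic acid replicate 1 stood above the other libraries at the nuclear genes. Taken gene by gene as log2 CPM minus the gene's DMSO mean, the median deviation of the 81 nuclear subunits was 0.46, 0.05 and -0.04 in ethacrynic acid replicates 1, 2 and 3, and 0.08, -0.03 and -0.05 in DMSO replicates 1, 2 and 3. For the 13 mitochondrial genes the medians were 0.05, 0.03 and 0.00 with ethacrynic acid and 0.06, 0.04 and -0.10 with DMSO. Ethacrynic acid replicate 1 was the highest of the 6 libraries for 75 of the 81 nuclear subunits and for 5 of the 13 mitochondrial genes, and for 88 of all 107 members (82.2%), against 27.0% of all genes. Without it 8 members were higher and 4 lower at an unadjusted p under 0.05, against 7.76% and 4.61% of all genes, and 61 of 107 log2 fold changes were positive. Each of the 20 nuclear subunits with a log2 fold change of at least 0.3 had a smaller value without this library, and their range of 0.30 to 0.52 became 0.08 to 0.32. These 20 were picked by values that include this library, the highest for most subunits, so a decrease was largely fixed by the choice. What set this library apart was not tested.

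**Figure D3:**
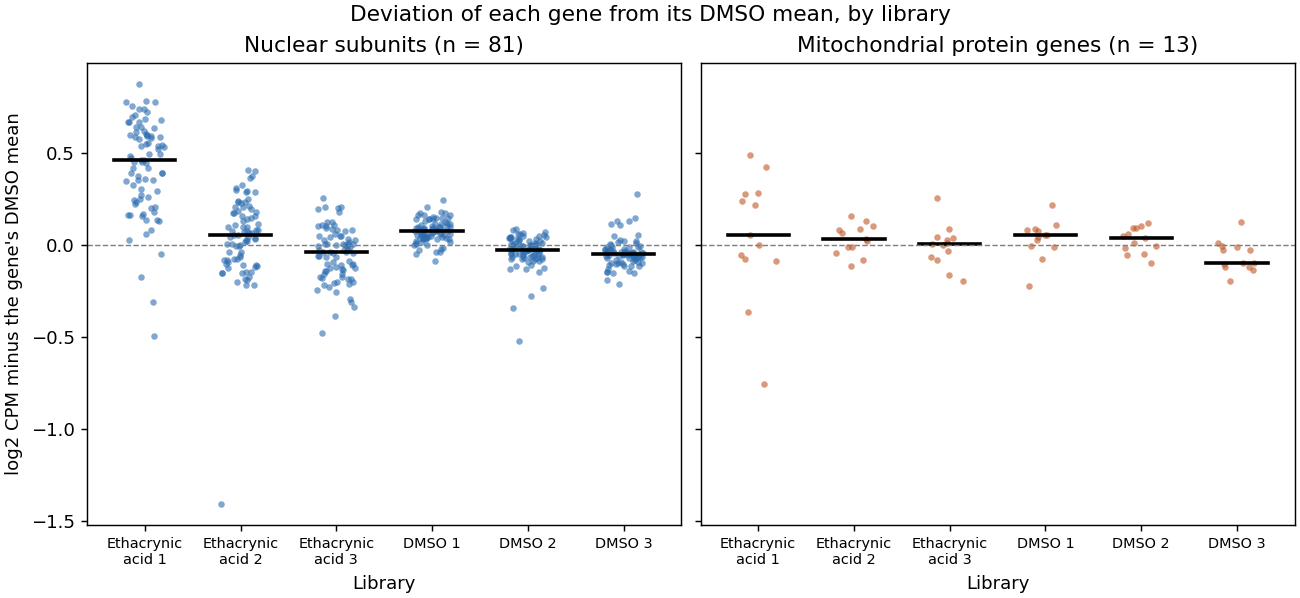
Each point is a gene's log2 CPM in a library minus that gene's mean over the DMSO libraries, for 81 nuclear subunits (left) and 13 mitochondrial genes (right), with medians as bars. Ethacrynic acid replicate 1 has a nuclear median of 0.46, whereas the medians of the other 5 libraries lie between -0.05 and 0.08, and no mitochondrial median exceeds 0.06.

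Values also varied with the length of the coding sequence, a property that the choice of genes did not use. Split at 387 bases, the median coding length of the tested nuclear subunits and a division made after their values were seen, the 41 shorter genes had a median log2 fold change of 0.23 (37 positive) and the 40 longer ones 0.03 (27 positive). Without ethacrynic acid replicate 1 the medians were 0.08 and -0.08. Across all nuclear protein-coding genes, the 680 at or below the same length had a median of 0.16 (0.06 without ethacrynic acid replicate 1), with 499 positive. The 13176 longer ones had a median of 0.00 (0.00 without that library), with 6643 positive.

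Per library, the Spearman correlation across the 81 subunits between deviation and coding length was -0.55, -0.58 and -0.51 in the ethacrynic acid libraries and -0.02, 0.01 and -0.01 in the DMSO libraries. The ethacrynic acid values share the same DMSO means, genes are not independent replicates, and the DMSO deviations sum to 0 for each gene. Over 13856 nuclear protein-coding genes the same correlations were -0.30, -0.09 and 0.04 with ethacrynic acid and -0.21, 0.07 and 0.14 with DMSO. For the fold change itself the correlation was -0.57 across the 81 subunits, and -0.54 without ethacrynic acid replicate 1. It was -0.07 across the 13 mitochondrial genes and 0.19 without that library, and -0.17 and -0.02 across all nuclear protein-coding genes. Short subunits are also mostly membrane or accessory proteins, and length and role cannot be told apart here.

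**Figure D4:**
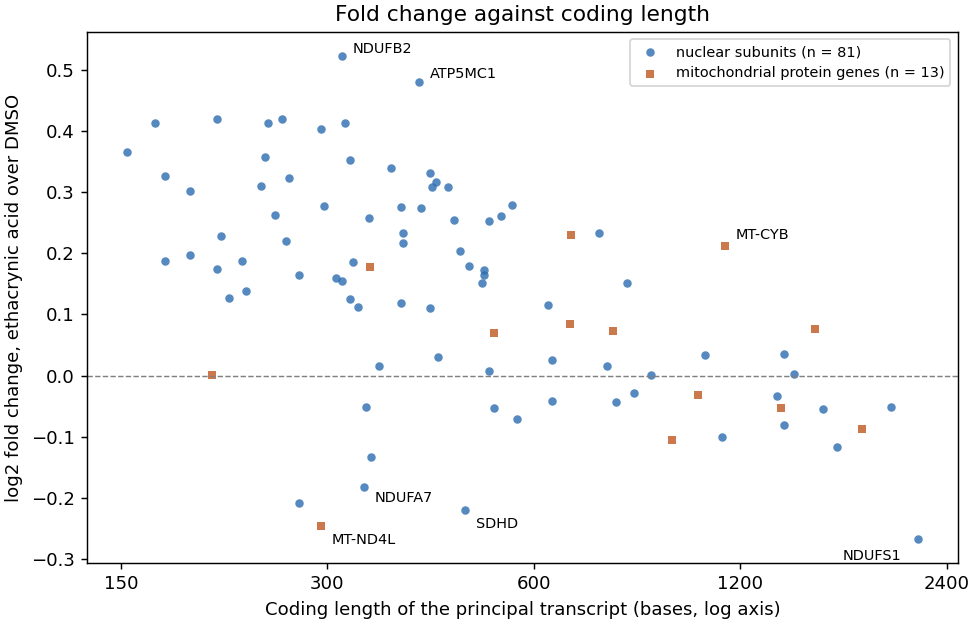
The log2 fold change, ethacrynic acid over DMSO, of 81 nuclear subunits (blue circles) and 13 mitochondrial genes (orange squares) is plotted against coding length in bases on a log axis. NDUFB2 (315 bases) and ATP5MC1 (408 bases) lie at the top at 0.52 and 0.48, and NDUFS1, the longest, lies at the bottom at -0.27. ATP5MC1 is above the 387 bases at which the subunits are split in the text.

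Among genes that supply, build or regulate the chain, 0 were called in each of the lists below (edgeR, 238 genes tested in all, with COA1 in 2 lists). At an unadjusted p under 0.05, 15 of the 238 were higher (6.3%) and 6 lower (2.52%), against 6.54% and 4.6% of all genes. DESeq2 called 5 of them (2.1%, against 3.82% of all genes): PPARGC1A, ESRRA, MYC, TFE3 and COA3. With the replicate number as a term, edgeR gave adjusted p-values of 0.0325 for PPARGC1A, 0.0254 for MYC, 0.0360 for ESRRA and 0.0364 for TFE3. The TCA cycle list, which feeds NADH and succinate to the chain, had 3 of 17 positive values and a median log2 fold change of -0.04. PDHX, a component of pyruvate dehydrogenase, had 23.9, 25.3 and 25.2 CPM with ethacrynic acid, against 33.2, 30.1 and 28.4 CPM with DMSO (log2 fold change -0.30 ± 0.10 SE, adjusted p = 0.375). SUCLG2, a subunit of succinate-CoA ligase, had 47.7, 64.2 and 66.9 CPM with ethacrynic acid, against 72.3, 83.4 and 77.7 CPM with DMSO (-0.38 ± 0.14, adjusted p = 0.397). Neither overlapped between the groups.

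Regulators of mitochondrial biogenesis were positive in 4 of 15 tested genes, with a median of -0.12, and in 7 of 15 with a median of -0.01 without ethacrynic acid replicate 1. PPARGC1A, the coactivator PGC-1 alpha that drives respiratory genes through NRF1 and related factors, had 19.9, 21.4 and 27.4 CPM with ethacrynic acid, against 38.1, 31.2 and 52.9 CPM with DMSO. The groups did not overlap (log2 fold change -0.83 ± 0.21 SE, edgeR unadjusted p = 0.00426, adjusted p = 0.218), and DESeq2 gave an adjusted p of 0.00724. TFE3, a lysosomal and mitochondrial regulator, had 59.7, 59.9 and 51.9 CPM with ethacrynic acid, against 45.6, 44.2 and 38.9 CPM with DMSO, also without overlap (0.41 ± 0.10, adjusted p = 0.218, DESeq2 adjusted p = 0.0177). The growth regulator MYC, given because DESeq2 called it, had 308, 357 and 368 CPM with ethacrynic acid, against 200.4, 256 and 266 CPM with DMSO (0.52 ± 0.13, adjusted p = 0.218, DESeq2 adjusted p = 0.00821). ESRRA, a nuclear receptor that works with PGC-1 alpha and is given for the same reason, had 52.8, 43.5 and 39.3 CPM with ethacrynic acid, against 34.4, 32.4 and 25.4 CPM with DMSO (0.56 ± 0.16, adjusted p = 0.281, DESeq2 adjusted p = 0.0320). Both were without overlap, MYC and ESRRA being higher in every ethacrynic acid library.

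Assembly factors of complex IV outside the symbol rule were positive in 14 of 25, with a median of 0.06. COA3, which stabilises newly made COX1 protein, had 20.7, 18.2 and 17.3 CPM with ethacrynic acid, against 13.8, 13.6 and 12.1 CPM with DMSO (log2 fold change 0.51 ± 0.12 SE, adjusted p = 0.209, DESeq2 adjusted p = 0.00967). COA4 had 49.7, 44.0 and 40.7 CPM with ethacrynic acid, against 32.9, 37.4 and 32.4 CPM with DMSO (0.39 ± 0.11, adjusted p = 0.305). Neither overlapped between the groups. Assembly factors of complexes III and V were positive in 6 of 14 (median -0.03), with ATPAF1 at -0.18 and TMEM242 at -0.20, and other assembly factors of complex I in 6 of 9 (median 0.07), with TMEM126A at 0.19 and TIMMDC1 at 0.14.

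Mitochondrial ribosomal proteins, which serve the translation of the 13 mitochondrial genes, were positive in 52 of 78 with a median of 0.10 (0.00 without ethacrynic acid replicate 1). MRPS12 and MRPL51 had log2 fold changes of 0.50 ± 0.18 and 0.45 ± 0.16 (SE, adjusted p = 0.386 and 0.398). Mitochondrial transcription and RNA handling genes were positive in 18 of 29 (median 0.03), among them TBRG4 at 0.26 and TFB2M, a transcription factor of the mitochondrial polymerase, at 0.24. Genes of mitochondrial DNA maintenance were positive in 11 of 19 (median 0.05), with the helicase TWNK at 0.33 and the adenine nucleotide carrier SLC25A4 at 2.06 ± 0.70 (SE), whose highest library, ethacrynic acid replicate 3, had 2.52 CPM against 0.573 and 0.463 CPM in the other ethacrynic acid libraries and 0.206 to 0.377 CPM in DMSO. Without that library the SLC25A4 value was 0.87.

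Cytochrome c, ubiquinone synthesis and the ATPase inhibitor were positive in 8 of 17 (median -0.01), with COQ6 at -0.27 and PDSS2 at -0.28. Uncouplers, alternative entry points and carriers were positive in 14 of 16 (median 0.11), with VDAC3 at 0.33 and PRODH at 2.11 ± 0.85 (SE). PRODH had 0.278, 0.481 and 2.08 CPM with ethacrynic acid, against 0.0736, 0.261 and 0.320 CPM with DMSO, and without ethacrynic acid replicate 3 its value was 0.79.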

How the data were processed

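RNA from 6 U937 libraries was sequenced after preparation with an mRNA kit, per the labels' protocols. The deposited values are whole-number counts per Ensembl gene ID, unscaled between libraries. Per the submitters' processing notes, the tools included fastp, HISAT2, edgeR and StringTie 1.3.4d on GRCh38, without roles. How reads were counted, on which strand and with which annotation is not given in the sources used here.

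Symbols were matched for 61757 of 61806 IDs, and GENCODE 29 on GRCh38 gave coordinates and lengths for all 114 members. The members, gene lists and motifs were chosen with earlier results of these data known. Genes passing filterByExpr (minimum count 10, minimum total 15) entered TMM scaling and the edgeR 4.0.16 quasi-likelihood F-test in R 4.3.3, two-sided, with group as the only term and Benjamini-Hochberg adjustment over 19611 genes at 0.05. No p was computed for a list. SE is the fold change over the square root of F, and intervals are 95%. Named genes were the 13 mitochondrial genes, the 3 largest values in each direction and 2 highest levels per complex, isoforms, complex II, and the 2 of smallest p per list. Others, such as ATP5MK, ATP5PF and NDUFAF8, were chosen after their values were seen.

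A read pair may be worth more than 1 count, so depth overstates precision. Of the members, 58 have exons overlapping another gene and 65 have a named pseudogene, and their reads may be divided in ways the table does not show. Alternatives were total count, upper-quartile and RLE scaling, scaling without mitochondrial genes, no filter, a filter of 5 CPM in 3 libraries, DESeq2 1.42.0, limma-voom (limma 3.58.1), the replicate number as a term, counts divided by 4, protein-coding genes alone and each library left out. The test was checked on simulated counts.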

Additional observations from a re-analysis of the deposited data

How the results depend on the processing

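The count of called members was 0 in 16 of 17 alternatives and 1 with DESeq2. Over all genes 52 calls were made by edgeR as described above, 14 with no filter, 96 with the stricter filter and 614 with DESeq2. With a library left out they ranged from 4 to 148 (6 without ethacrynic acid replicate 2, 148 without ethacrynic acid replicate 3, and 4, 8 and 7 without DMSO replicates 1, 2 and 3). Same-numbered libraries correlated by 0.161, 0.0585 and 0.0868 in their deviations from group means. Libraries of different numbers correlated by -0.121 to 0.0261, so each correlated most with its same-numbered library. No label ties libraries by number, so the main fit did not take the numbers as pairs. Whether they mark pairs was not tested. A replicate block gave 355 calls over all genes, 0 members called and a smallest member adjusted p of 0.0701 (edgeR), with PPARGC1A at 0.0325, TFE3 at 0.0364, MYC at 0.0254 and ESRRA at 0.0360. Under total count scaling the mitochondrial median was -0.017 and that of its complex I genes -0.133, and with a library left out the median of all 13 ranged from 0.0044 (without DMSO replicate 3) to 0.073.

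No gene whose log2 fold change changed sign was called. Under total count scaling the values were -0.084 for NDUFC2, -0.086 for UQCRC1, -0.017 for MT-ND6, -0.0031 for MT-CO1, -0.012 for MT-CO3, -0.076 for MT-ATP8, -0.054 for NDUFV1 and -0.010 for CYC1. UQCRC1 was at -0.010 with upper-quartile scaling, -0.012 with limma-voom and the replicate block, -0.0071 with the stricter filter, -0.0062 with protein-coding genes only and -0.0042 with no filter. MT-ATP8 was at -0.011 with upper-quartile scaling, -0.0077 with no filter, -0.0054 with the stricter filter and -0.0070 with protein-coding genes only. NDUFC2 was at -0.033 with the replicate block and -0.037 with limma-voom. With a library left out, values ranged from -0.63 to 0.18 for NDUFA7, -0.31 to 0.21 for NDUFC2, -0.16 to 0.035 for SDHA, -0.13 to 0.033 for SDHB, -0.15 to 0.093 for UQCRC1, -0.088 to 0.0040 for UQCRC2, -0.16 to 0.012 for COX7A2L, -0.038 to 0.30 for COX8A, -0.028 to 0.23 for COX8C, -0.043 to 0.20 for ATP5MC2, -0.15 to 0.0097 for ATP5F1B, -0.19 to 0.051 for NDUFS7, -0.055 to 0.21 for NDUFS8, -0.14 to 0.12 for NDUFV1, -0.019 to 0.22 for UQCRB and -0.095 to 0.17 for CYC1. The same ranges were -0.083 to 0.019 for MT-ND2, -0.17 to 0.042 for MT-ND5, -0.036 to 0.19 for MT-ND6, -0.033 to 0.13 for MT-CO3, -0.060 to 0.044 for MT-ATP8 and -0.0092 to 0.19 for MT-RNR1. The cause of these shifts was not tested. Depth limited the genes under the floor of 3 counts, such as COX4I2 with ethacrynic acid, and the spread between libraries limited the others.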

Other observations

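Outside the protein genes, the large mitochondrial ribosomal RNA MT-RNR2, named after its values were seen, had 9777, 9889 and 8708 CPM with ethacrynic acid, against 11927, 11373 and 12064 CPM with DMSO. The groups did not overlap, and the log2 fold change was -0.32 ± 0.10 (SE; edgeR unadjusted p = 0.0111, edgeR adjusted p = 0.325, DESeq2 adjusted p = 0.0192). The small ribosomal RNA MT-RNR1 had 530, 450 and 397 CPM with ethacrynic acid, against 441, 406 and 438 CPM with DMSO, with overlap. The kit selects messenger RNA, and how much of either ribosomal RNA is captured was not tested. Both ribosomal RNAs together held 0.944, 1.01 and 0.934% of all counts with ethacrynic acid, against 1.26, 1.19 and 1.32% with DMSO. CYC1, cytochrome c1 of complex III, which the symbol rule does not take, had 296, 216 and 207 CPM with ethacrynic acid, against 240, 231 and 211 CPM with DMSO (log2 fold change 0.08 ± 0.15 SE).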
